A study of Mus musculus with 4 samples.

Results

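Neural lineage markers are genes that are read as signs of neural progenitors or neurons, and their transcripts were examined here in mouse embryonic stem cells (ESCs) that had not been differentiated. The markers were taken by gene symbol as *Nes*, *Pax6*, *Neurod1*, *Tubb3*, *Map2*, *Dcx*, *Stmn2*, *Ncam1* and *Gap43*. Of these 9 genes, 8 were found among the 17958 gene symbols of the 4 libraries, and *Dcx*, which encodes the microtubule-binding protein doublecortin of migrating neurons, was not analysed here. Total RNA was sequenced after removal of ribosomal RNA from wild-type (WT) ESCs in 2 libraries and from *Bmal1* knockout (KO) ESCs made with CRISPR-Cas9 in 2 libraries, to ask which transcripts change when the circadian factor BMAL1 is lost. BMAL1 is the basic helix-loop-helix (bHLH) protein encoded by *Arntl*. The methods describe ESCs kept on gelatin in serum with LIF, the KO cells as a selected clone with a frameshift deletion and the libraries as biological replicates, but no label ties a library to a culture or a clone of its own, so genotype and clone or culture cannot be told apart.

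A cell that turns from pluripotency to the neural lineage first takes on the state of a dividing neural progenitor, in which the intermediate filament nestin and transcription factors of the PAX and SOX families are made. Proneural bHLH factors then drive progenitors towards neurons, and neurons replace much of their microtubule and adhesion machinery with forms such as class III β-tubulin, MAP2, stathmin-2 and GAP43. Several of these genes are widely used to score neural differentiation of ESCs, where they are usually read against the undifferentiated culture, so their levels in that culture set the baseline of such assays.

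BMAL1 and its partner CLOCK bind the E-box CACGTG, and proneural factors such as NEUROD1 bind E-boxes of the wider form CANNTG, so the promoters of the markers were read for both on each strand. The RefSeq promoter table (GRCm38.p6) held 6 of the 9 genes, with 2 windows each for *Pax6* and *Dcx*. In the 250 bases before the RefSeq start, no window of these 6 genes held CACGTG, which was present in 6.02% of the 32851 windows of the table. CANNTG, which also matches every CACGTG, was present in 66.2% of all windows but, among the markers, in *Neurod1* and the second *Pax6* window alone, and *Nes*, *Tubb3*, *Map2*, *Dcx* and the first *Pax6* window held none. The sequences are given for the markers that changed and had a window, cut to the bases outside annotated exons and with any CANNTG in capitals; they lie at chr2:79456786-79456886 on the minus strand, chr2:105668646-105668895 on the plus strand and chr8:123411303-123411423 on the plus strand of GRCm38.
*Neurod1*: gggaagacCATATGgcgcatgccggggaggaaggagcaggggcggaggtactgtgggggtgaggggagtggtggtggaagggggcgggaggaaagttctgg
*Pax6*, first window: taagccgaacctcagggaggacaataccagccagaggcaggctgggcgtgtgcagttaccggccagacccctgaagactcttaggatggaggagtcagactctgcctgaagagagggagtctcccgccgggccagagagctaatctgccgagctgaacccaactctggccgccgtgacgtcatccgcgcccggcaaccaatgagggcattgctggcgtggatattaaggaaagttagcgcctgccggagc
*Tubb3*: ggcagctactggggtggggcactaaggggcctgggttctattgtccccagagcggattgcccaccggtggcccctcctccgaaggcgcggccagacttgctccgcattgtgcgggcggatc
The match of *Neurod1* reads CATATG and starts 242 bases before the RefSeq start, and the match of the second *Pax6* window reads CAAATG, 20 bases before its RefSeq start. The GENCODE gene bounds given below differ from these starts. The whole *Neurod1* window, 79456637 to 79456886, takes in the GENCODE start at 79456751. The whole *Tubb3* window, 123411303 to 123411552, takes in the GENCODE start at 123411424. These 3 windows were GC-rich beside the table's median of 52.4%, at 67.6% for *Neurod1*, 68% for *Tubb3* and 60.8% for the first *Pax6* window. A match or its absence in these windows describes the letters and not binding.

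All 8 markers were detected in each library, but at very different levels. Levels are given as FPKM, fragments normalised to transcript length and to the mapped reads of the library, a unit per length in which genes can be compared. In WT the order from the highest mean was *Stmn2*, *Tubb3*, *Gap43*, *Ncam1*, *Map2*, *Nes*, *Pax6* and *Neurod1*, and the library values of *Pax6* overlapped those of its neighbours *Nes* and *Neurod1*. In KO the order was *Stmn2*, *Tubb3*, *Gap43*, *Ncam1*, *Neurod1*, *Pax6*, *Map2* and *Nes*, and *Pax6* overlapped its neighbours *Neurod1* and *Map2*. No value was listed at 0, and the mean over the 4 libraries was at least 1 FPKM for all 8. *Stmn2* and *Tubb3* stood at percentiles 95.7 and 94.7 among features with a symbol, whereas *Nes* stood at 38.1, *Neurod1* at 41.1 and *Pax6* at 41.5. Genes of distant tissues, such as liver, muscle, pancreas and retina, served as a background for low values: 14 of 30 were in the files, their median over the 4 libraries was 0.159 FPKM, and 2 of them, the keratin gene *Krt10* and the T-cell receptor subunit gene *Cd3e*, reached a mean of 1 FPKM. *Nes*, *Neurod1* and *Pax6* were below 1 FPKM in both WT libraries and above it in both KO libraries.

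**Figure D1:**
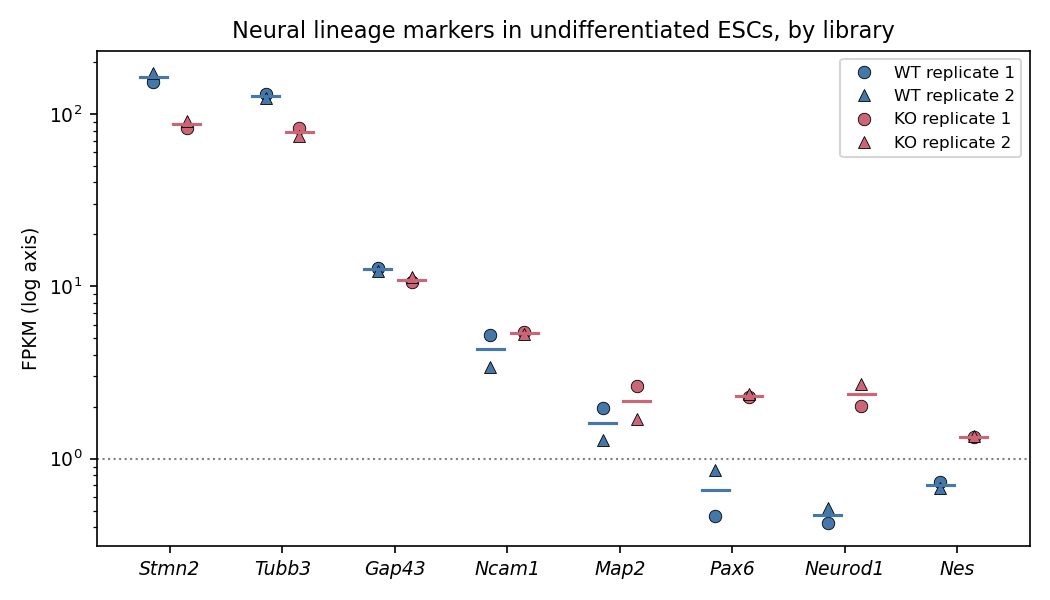
FPKM of the 8 detected neural lineage markers on a log axis, with a circle for replicate 1 and a triangle for replicate 2 of WT (blue) and KO (red) ESCs, a horizontal line at the mean of each group and a dotted line at 1 FPKM. *Stmn2* and *Tubb3* lie above 70 FPKM in each library and lower in KO than in WT, and *Pax6*, *Neurod1* and *Nes* lie below 1 FPKM in WT and above it in KO.

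The markers differed between KO and WT in both directions. *Neurod1* and *Pax6* rose in KO and *Tubb3* and *Stmn2* fell. *Nes*, *Map2* and *Ncam1* had higher means in KO and *Gap43* a lower one, none of them past the test. Changes were tested as log2(FPKM + 0.1) with limma, whose moderated test was run on 12990 features with a mean of at least 0.5 FPKM and adjusted by Benjamini-Hochberg over all of them, and the mean over the 4 libraries of each of the 8 markers passed that minimum, that of *Neurod1* through KO alone. Of the 8, 2 were higher and 2 lower at an adjusted p under 0.05, whereas 6.85% of all features were higher, 5.60% lower and 12.5% passed in either direction. With the added demand of more than a 2-fold change, which the study's methods also use and which is meant by "called", 2 of the 8 were higher, against 2.72% of all features, and 0 were lower, against 1.42%, with 4.14% of all features called in either direction. At an unadjusted p under 0.05 the same limma test gave 3 markers higher and 2 lower, and it gave 14.1% of all features higher and 15.5% lower. The KO libraries lay above both WT libraries for 4 markers, against 27.0% of all features, and below both for 3, against 31.7%, so the groups did not overlap for 7 of 8, and for 58.8% of all features. The median log2 fold change of the 8 was 0.37, against -0.02 for all features. With 2 libraries against 2 an exact two-sided permutation test of a single gene cannot go below p = 0.333, so the limma values rest on a spread shared across features, and they measure the spread between these libraries only.

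**Figure D2:**
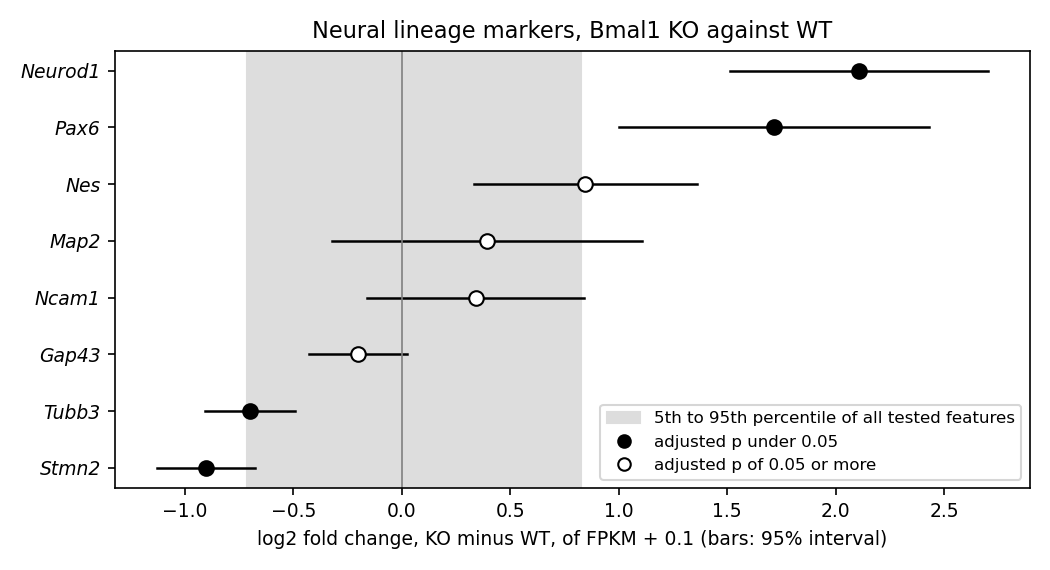
Log2 fold change of FPKM + 0.1, KO minus WT, for the 8 markers, with bars for the 95% interval from limma, filled points for an adjusted p under 0.05 and a grey band from the 5th to the 95th percentile of all tested features, -0.71 to 0.83. *Neurod1* and *Pax6* lie above the band with their whole interval, and *Stmn2* lies below it while part of its interval reaches into it.

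*Neurod1* encodes a proneural bHLH factor that drives neuronal differentiation and also acts in endocrine cells of the pancreas. It is annotated on the minus strand of chromosome 2 of GRCm38 from 79452521 to 79456751 (ENSMUSG00000034701.9) with 1 transcript of 2 exons. Its level was 0.423 and 0.517 FPKM in WT replicates 1 and 2, and 2.02 and 2.72 FPKM in KO replicates 1 and 2. Both KO libraries were high and both WT libraries low, without overlap. The WT mean was 0.470 ± 0.0669 and the KO mean 2.37 ± 0.497 FPKM (SD, n = 2), and the log2 fold change was 2.11 (SE 0.24, 95% interval 1.51 to 2.70, limma adjusted p = 0.00746). Its exons share 9.66% of their 50-base stretches with *Cerkl* on the same strand and the antisense gene *Gm26755*, which overlap it. Reads from the stretches shared with *Cerkl* cannot be assigned to *Neurod1* alone. Those shared with *Gm26755* could be told apart by strand, but the strand of the libraries is not given in the sources used here. The WT mean lay under the minimum of 0.5 FPKM, so *Neurod1* was tested only through its level in KO, which favours a difference.

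The other NEUROD and NEUROG genes gave no like signal. *Neurod2*, *Neurog1* and *Neurog2* were listed at 0 in 3 of 4 libraries each and did not exceed 0.0291 FPKM in the remaining library. *Neurog3*, which initiates the endocrine lineage of the pancreas, was at 0.301 and 0.512 FPKM in WT and 0.336 and 0.149 FPKM in KO, and its groups overlapped. These 4 genes were below the minimum for testing, and *Neurod4* and *Neurod6* were not analysed here.

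*Pax6* encodes a paired-domain and homeodomain factor of the neural plate, the cortex and the eye. The gene lies on the plus strand of chromosome 2 from 105668900 to 105697364 (ENSMUSG00000027168.21). Its level was 0.466 and 0.859 FPKM in WT replicates 1 and 2, and 2.28 and 2.36 FPKM in KO replicates 1 and 2. The KO libraries were close together, above both WT libraries, and the WT libraries differed from each other by more. Means were 0.662 ± 0.278 FPKM for WT and 2.32 ± 0.0549 FPKM for KO (SD, n = 2), and the log2 fold change was 1.72 (SE 0.29, 95% interval 1.00 to 2.43, limma adjusted p = 0.0198). Without the minimum on low values the limma adjusted p was 0.0536, over all 19645 features. The deposited feature runs from 105536080 to 105904564, 12.9 times the length of the annotated gene, and carries the same coordinates as the features of *Elp4*, an Elongator subunit gene, and of the long non-coding RNA *Paupar*. *Elp4* was at 3.66 and 3.83 FPKM in WT and 3.18 and 3.74 FPKM in KO and did not follow *Pax6*, while *Paupar* was listed at 0 in all but KO replicate 1, where it had 0.0133 FPKM. The antisense gene *Pax6os1*, from 105536080 to 105670330, overlaps the start of *Pax6*, and without strand its reads in that overlap cannot be told apart from those of *Pax6*.

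*Pax8*, a PAX gene of thyroid and kidney, had values of 1.40 and 1.04 FPKM in WT and 0.449 and 0.595 FPKM in KO. Its log2 fold change of -1.08 (SE 0.27) did not pass the limma test at an adjusted p of 0.0577. *Pax1*, *Pax2*, *Pax7* and *Pax9* stayed at or below 0.241 FPKM in each library and were not tested, and *Pax3*, *Pax4* and *Pax5* were not analysed here. *Pax6* was thus the only PAX gene of the 2 tested that passed, against 12.5% of all features.

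*Nes* encodes nestin, the intermediate filament protein of neural progenitors, and lies on chromosome 3 from 87971078 to 87980451 on the plus strand (ENSMUSG00000004891.16). Its level was 0.733 and 0.674 FPKM in WT replicates 1 and 2, and 1.33 and 1.36 FPKM in KO replicates 1 and 2. The groups did not overlap and replicates lay close together. The means were 0.704 ± 0.0419 and 1.34 ± 0.0217 FPKM (SD, n = 2) and the log2 fold change was 0.85 (SE 0.21, 95% interval 0.33 to 1.36), but at an adjusted p of 0.0541 in limma it did not pass.

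Among the other intermediate filament genes, 2 rose and 1 fell, against 6.85% and 5.60% of all features. *Vim*, which encodes vimentin and is made by progenitors and by mesenchymal cells alike, was at 39.8 and 45.9 FPKM in WT and 58.0 and 58.8 FPKM in KO, a log2 fold change of 0.45 (SE 0.09, limma adjusted p = 0.0330). *Des*, the muscle filament gene desmin, was at 1.45 and 1.17 FPKM in WT and 3.52 and 2.93 FPKM in KO, and was called with a log2 fold change of 1.23 (SE 0.19, limma adjusted p = 0.0145). *Nefh*, the heavy neurofilament gene, fell from 9.67 and 8.82 FPKM to 5.84 and 6.62 FPKM, with a log2 fold change of -0.56 (SE 0.11, limma adjusted p = 0.0322). The light neurofilament gene *Nefl* was at 6.34 and 7.10 FPKM in WT and 8.69 and 9.03 FPKM in KO, with a log2 fold change of 0.40 (limma adjusted p = 0.0677). For *Ina* the log2 fold change was -0.14 (limma adjusted p = 0.320), for *Prph* it was -0.00 (limma adjusted p = 0.996) and for *Synm* it was 0.56 (limma adjusted p = 0.369). *Gfap* did not exceed 0.269 FPKM and *Nefm* did not exceed 0.132 FPKM, and neither was tested. Of the neurofilament genes only *Nefh* passed, and *Nefl* had the opposite sign. *Nefm*, at its low level, lay lower in both KO libraries than in both WT libraries.

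*Tubb3* encodes class III β-tubulin, the tubulin isotype by which neurons are most often stained. It lies on chromosome 8 from 123411424 to 123422015 on the plus strand (ENSMUSG00000062380.4), within the readthrough gene model *Gm20388*. Its level was 130 and 124 FPKM in WT replicates 1 and 2, and 82.5 and 74.0 FPKM in KO replicates 1 and 2. Each KO library was below each WT library. The mean fell from 127 ± 4.78 to 78.3 ± 5.96 FPKM (SD, n = 2), 1.62-fold lower, with a log2 fold change of -0.70 (SE 0.08, 95% interval -0.91 to -0.49, limma adjusted p = 0.00827). Although its coding sequence belongs to a family of close homologues, none of the 50-base stretches of its reference transcript occurs in another annotated gene's transcripts.

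*Tubb3* was the only 1 of the 6 tested β-tubulin genes that passed the limma test, which 12.5% of all features passed. *Tubb5*, the isotype of most dividing cells, was the most abundant at 1041 and 970 FPKM in WT and 917 and 830 FPKM in KO, with a log2 fold change of -0.20 (SE 0.09, limma adjusted p = 0.198). *Tubb4b* had a log2 fold change of -0.04, *Tubb2b* of 0.02 and *Tubb2a* of 0.06, with limma adjusted p of 0.772, 0.925 and 0.753. *Tubb6* was at 50.7 and 47.9 FPKM in WT and 41.6 and 37.1 FPKM in KO, a log2 fold change of -0.33 (SE 0.09, limma adjusted p = 0.0710). *Tubb4a* and *Tubb1* did not exceed 0.496 and 0.146 FPKM and were not tested. Of the summed FPKM of the β-tubulin genes, *Tubb3* made up 6.42% and 6.48% for WT and 4.43% and 4.42% for KO. Whether *Tubb3* changed by more than *Tubb5* or *Tubb6* was not tested.

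*Stmn2* encodes stathmin-2, a tubulin-binding protein of growing axons, and was the most abundant of the 8 markers. It lies on chromosome 3 from 8509360 to 8561606 on the plus strand (ENSMUSG00000027500.10), and its reference transcript shares no 50-base stretch with another gene. Its level was 153 and 172 FPKM in WT replicates 1 and 2, and 82.9 and 90.6 FPKM in KO replicates 1 and 2. Each KO library was below each WT library. The mean fell from 162.5 ± 13.4 to 86.8 ± 5.40 FPKM (SD, n = 2), 1.87-fold lower, with a log2 fold change of -0.90 (SE 0.09, 95% interval -1.13 to -0.68, limma adjusted p = 0.00566).

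The 3 stathmin genes measured went different ways. *Stmn1*, the stathmin of dividing cells, was at 751 and 820 FPKM in WT and 878 and 893 FPKM in KO, with a log2 fold change of 0.18 (SE 0.08, limma adjusted p = 0.221). *Stmn3*, another neuronal stathmin, was at 13.2 and 13.9 FPKM in WT and 42.8 and 37.9 FPKM in KO, and was called with a log2 fold change of 1.56 (SE 0.09, limma adjusted p = 0.00169). Of the summed FPKM of the family, *Stmn2* made up 16.7% and 17.1% in WT and 8.26% and 8.87% in KO, and *Stmn3* made up 1.44% and 1.39% in WT and 4.26% and 3.71% in KO. Both neuronal stathmins thus passed the test in opposite directions. *Stmn4* was not analysed here.

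**Figure D3:**
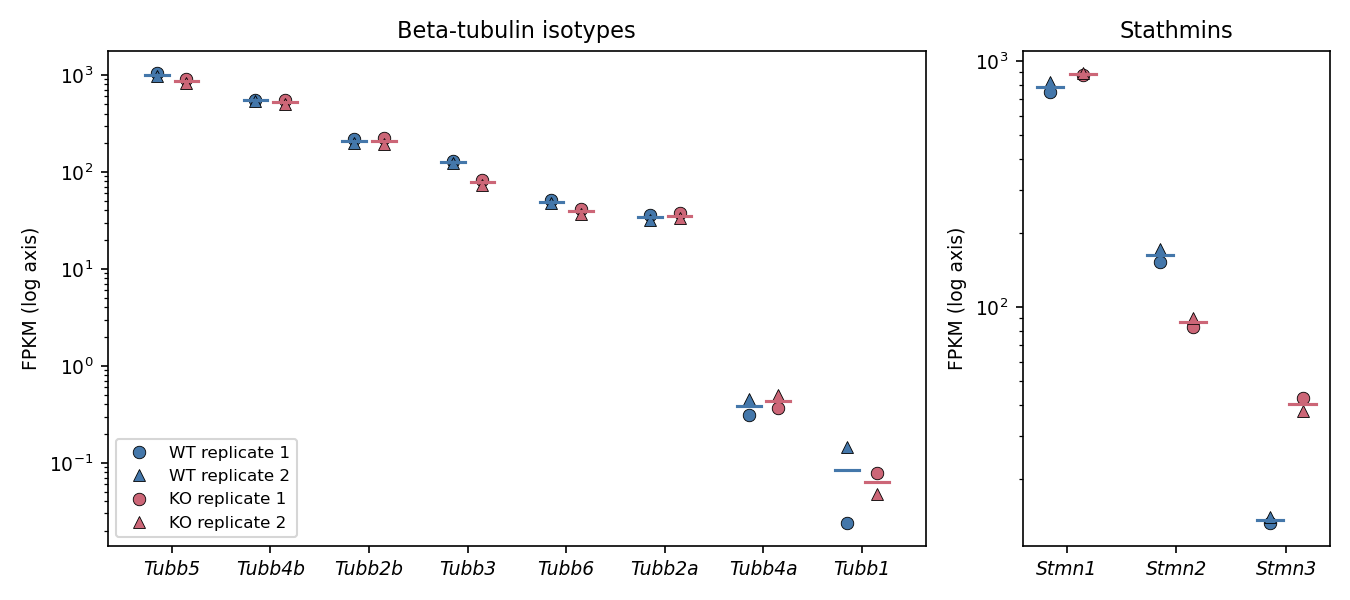
FPKM of the 8 β-tubulin genes (left) and the 3 measured stathmin genes (right) on log axes, with a circle for replicate 1 and a triangle for replicate 2 of WT (blue) and KO (red) and a line at each group's mean. *Tubb3* is the β-tubulin that passed the test, and *Stmn2* and *Stmn3* move towards each other, from 162.5 and 13.6 FPKM in WT to 86.8 and 40.4 FPKM in KO.

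*Map2* encodes a microtubule-associated protein of dendrites and lies on chromosome 1 from 66175273 to 66442583 on the plus strand (ENSMUSG00000015222.17), with 24 annotated transcripts. Its level was 1.95 and 1.28 FPKM in WT replicates 1 and 2, and 2.62 and 1.69 FPKM in KO replicates 1 and 2. The groups overlapped, since WT replicate 1 was above KO replicate 2. The means were 1.61 ± 0.480 and 2.16 ± 0.658 FPKM (SD, n = 2), and the log2 fold change of 0.39 (SE 0.29, 95% interval -0.32 to 1.11, limma adjusted p = 0.417) did not pass. Replicate 1 was above replicate 2 in both genotypes.

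Of the 9 genes of the MAP family that were tested, 2 fell and none rose, against 5.60% and 6.85% of all features. *Map1b*, a protein of growing axons, fell from 13.9 and 14.3 FPKM to 9.18 and 9.39 FPKM, with a log2 fold change of -0.60 (SE 0.09, limma adjusted p = 0.0133). *Map6*, which protects microtubules from cold, fell from 2.58 and 2.59 FPKM to 1.61 and 1.29 FPKM, with a log2 fold change of -0.80 (SE 0.17, limma adjusted p = 0.0393). *Mapt*, the tau gene, was at 3.53 and 2.92 FPKM in WT and 4.54 and 4.21 FPKM in KO, with a log2 fold change of 0.43 (SE 0.14, limma adjusted p = 0.111). The log2 fold changes of *Map1a*, *Map1s*, *Map4*, *Map7* and *Map9* were 0.05, -0.17, -0.14, -0.24 and -0.00, with limma adjusted p of 0.839, 0.298, 0.358, 0.110 and 0.989. At an unadjusted p under 0.05, 1 gene of the family was higher and 3 were lower, against 14.1% and 15.5% of all features.

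The 2 remaining markers, of adhesion and the growth cone, did not pass. *Ncam1* encodes the neural cell adhesion molecule and lies on chromosome 9 from 49502136 to 49798925 on the minus strand (ENSMUSG00000039542.16). Its level was 5.18 and 3.42 FPKM in WT replicates 1 and 2, and 5.44 and 5.29 FPKM in KO replicates 1 and 2. Both KO libraries were above both WT libraries, but WT replicate 1 lay closer to them than to WT replicate 2. The means were 4.30 ± 1.24 and 5.36 ± 0.108 FPKM (SD, n = 2), with a log2 fold change of 0.34 (SE 0.20, 95% interval -0.16 to 0.84, limma adjusted p = 0.322). A single library decides this value: the log2 fold change was 0.63 (limma adjusted p = 0.0252) without WT replicate 1 and 0.05 (limma adjusted p = 0.922) without WT replicate 2. The antisense gene *Gm11149* overlaps *Ncam1*, and 4.39% of the 50-base stretches of its transcript occur in other annotated transcripts, most of them in *Gm11149*.

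*Gap43* encodes a membrane protein of growth cones and lies on chromosome 16 from 42248442 to 42340651 on the minus strand (ENSMUSG00000047261.9). Its level was 12.8 and 12.3 FPKM in WT replicates 1 and 2, and 10.5 and 11.3 FPKM in KO replicates 1 and 2. The groups did not overlap but lay close together. The means were 12.5 ± 0.342 and 10.9 ± 0.524 FPKM (SD, n = 2), with a log2 fold change of -0.20 (SE 0.09, 95% interval -0.43 to 0.02, limma adjusted p = 0.206).

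Because *Stmn2* and *Tubb3* are so abundant, they set the sum of the markers. The summed FPKM of the 8 was 305 and 315 for WT and 190 and 189 for KO, and *Stmn2* and *Tubb3* together made up 92.9% and 93.9% of it in WT and 87.2% and 87.0% in KO. The sum of the markers was lower in KO although 5 of the 8 had a log2 fold change above 0. In bulk RNA, fewer cells with a transcript and less of it per cell cannot be told apart, so these values do not say how many cells of the culture carried a marker.

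The markers were then set beside 5 lists of neural genes, written from symbols by role, with 161 genes of which 151 were in the files and 92 were tested. Of the 92, 16 were higher and 8 lower at an adjusted p under 0.05 in limma, against 6.85% and 5.60% of all features. The counts that rose or fell in each list below stand beside these same shares, and some lie near them. Of the 92, 7 were called higher and 0 lower, while 353 of all 12990 features were called higher and 185 lower. At an unadjusted p under 0.05, 32 of the 92 were higher and 16 lower, against 1831 and 2013 of the 12990 features. For 6 of the 92, 1 group had a mean under the minimum, and 1 of these 6, *Nsg2*, was called. Their median log2 fold change was 0.09 and that of all features -0.02. The other 59 genes in the files were below the minimum, and 10 were not analysed here.

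Proneural bHLH factors and their partners had 10 tested genes of 25 in the files, of which 5 rose, 0 fell (1 at an unadjusted p under 0.05 in limma) and 5 did not pass, with a median log2 fold change of 0.56. All 5 that rose belong to the ID and HES genes on the list. ID proteins hold back proneural factors by binding their E-protein partners, HES1 represses proneural genes, and HES6 opposes HES1. *Id2* was called, from 6.69 and 7.60 FPKM in WT to 18.1 and 21.4 FPKM in KO, with a log2 fold change of 1.45 (SE 0.12, limma adjusted p = 0.00410). *Hes6* was called, from 5.76 and 4.96 FPKM to 14.9 and 10.5 FPKM, with a log2 fold change of 1.21 (SE 0.19, limma adjusted p = 0.0154), but it was not called without KO replicate 1. *Id1*, the most abundant gene of the list, rose from 91.7 and 91.0 FPKM to 138.6 and 136 FPKM, a log2 fold change of 0.59 (limma adjusted p = 0.00746), and *Id3* and *Hes1* rose with log2 fold changes of 0.69 and 0.72 (limma adjusted p = 0.00994 and 0.00604). *Tcf3*, an E-protein partner of proneural factors, was at 53.1 and 48.0 FPKM in WT and 59.0 and 51.8 FPKM in KO, with a log2 fold change of 0.13 (limma adjusted p = 0.432).

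Genes of the neural plate and of neural progenitors had 19 tested genes of 38, of which 6 rose, 3 fell and 10 did not pass, with a median log2 fold change of 0.45. The SOX factors *Sox1*, *Sox3* and *Sox11* were called. *Sox1*, an early marker of the neural plate, rose from 1.32 and 1.38 FPKM to 6.91 and 7.61 FPKM, with a log2 fold change of 2.34 (SE 0.13, limma adjusted p = 0.00169). *Sox3* rose from 1.67 and 1.42 FPKM to 3.60 and 3.25 FPKM, with a log2 fold change of 1.10 (SE 0.16, limma adjusted p = 0.0133), and was just under 2-fold, at a log2 fold change of 0.996, without WT replicate 2. *Sox11* rose from 1.71 and 1.58 FPKM to 3.66 and 3.54 FPKM. Its log2 fold change was 1.08 (SE 0.14, limma adjusted p = 0.010). The others that rose, without being called, were *Vim*, described above, *Pou3f1* and *Msi1*. *Pou3f1* had a log2 fold change of 0.79 and *Msi1* of 0.85 (limma adjusted p = 0.0187 and 0.0330). In contrast *Otx2*, a forebrain and epiblast homeobox gene, *En2*, a homeobox gene of the midbrain and hindbrain border, and *Slc1a3*, the glutamate transporter of radial glia, fell with log2 fold changes of -0.78, -0.98 and -0.77 (limma adjusted p = 0.00990, 0.0147 and 0.0136). *En2* lay near the 2-fold limit, and its log2 fold change was -1.15 without WT replicate 2. The genes with the highest means of the list, *Sox2* and *Gbx2*, which ESCs also express, had log2 fold changes of -0.26 and -0.05 (limma adjusted p = 0.0754 and 0.681).

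Neuronal cytoskeleton, adhesion and growth cone genes had 25 tested genes of 33, of which 1 rose, 4 fell and 20 did not pass, with a median log2 fold change of 0.02. *Stmn3*, described above, was the gene that rose, and *Map6*, *Map1b*, *Nefh* and the doublecortin-like kinase gene *Dclk2* were those that fell, the last with a log2 fold change of -0.58 (SE 0.10, limma adjusted p = 0.0235). *Stmn1* and *Marcksl1*, which encodes an actin-regulating membrane protein, were the most abundant, and *Marcksl1* had a log2 fold change of 0.09 (limma adjusted p = 0.686). The fall of *Tubb3* and *Stmn2* was therefore shared by some but not by most of the tested genes of this role.

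Genes of post-mitotic neurons had 17 tested genes of 33, of which 2 rose, 1 fell and 14 did not pass, with a median log2 fold change of 0.09. *Nsg2*, an endosomal protein of neurons, was called at low levels, from 0.161 and 0.243 FPKM to 0.897 and 1.25 FPKM, with a log2 fold change of 1.95 (SE 0.33, limma adjusted p = 0.0203), and did not pass without KO replicate 2 (limma adjusted p = 0.0640). It was tested only through its level in KO, since its WT mean was 0.202 FPKM, and it was not tested with a minimum of 1 FPKM. The RNA-binding protein gene *Celf4* rose with a log2 fold change of 0.75 (limma adjusted p = 0.0266). *Uchl1*, a deubiquitinase abundant in neurons, had the highest mean and fell from 105.8 and 106 FPKM to 80.9 and 72.9 FPKM, a log2 fold change of -0.46 (SE 0.08, limma adjusted p = 0.0216). *Vamp2*, of synaptic vesicles, was at 8.78 and 8.25 FPKM in WT and 12.8 and 9.73 FPKM in KO, with a log2 fold change of 0.39 (limma adjusted p = 0.149).

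The REST complex silences neuronal genes outside neurons, and the splicing repressor PTBP1 holds back neuronal exons. Of 21 tested genes of these repressors, 2 rose, 0 fell (2 at an unadjusted p under 0.05 in limma) and 19 did not pass, with a median log2 fold change of 0.05. *Rest* rose from 43.5 and 45.2 FPKM to 55.0 and 58.4 FPKM, with a log2 fold change of 0.35 (SE 0.08, limma adjusted p = 0.0373), and *Hmg20b*, a subunit of the complex, from 22.2 and 22.6 FPKM to 34.1 and 34.0 FPKM, with a log2 fold change of 0.60 (SE 0.07, limma adjusted p = 0.00905). *Ptbp1* and *Hdac1*, the most abundant of the list, had log2 fold changes of -0.01 and -0.11 (limma adjusted p = 0.953 and 0.339). *Rest*, *Hmg20b* and the other genes that passed without being called were named after their values were seen.

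**Figure D4:**
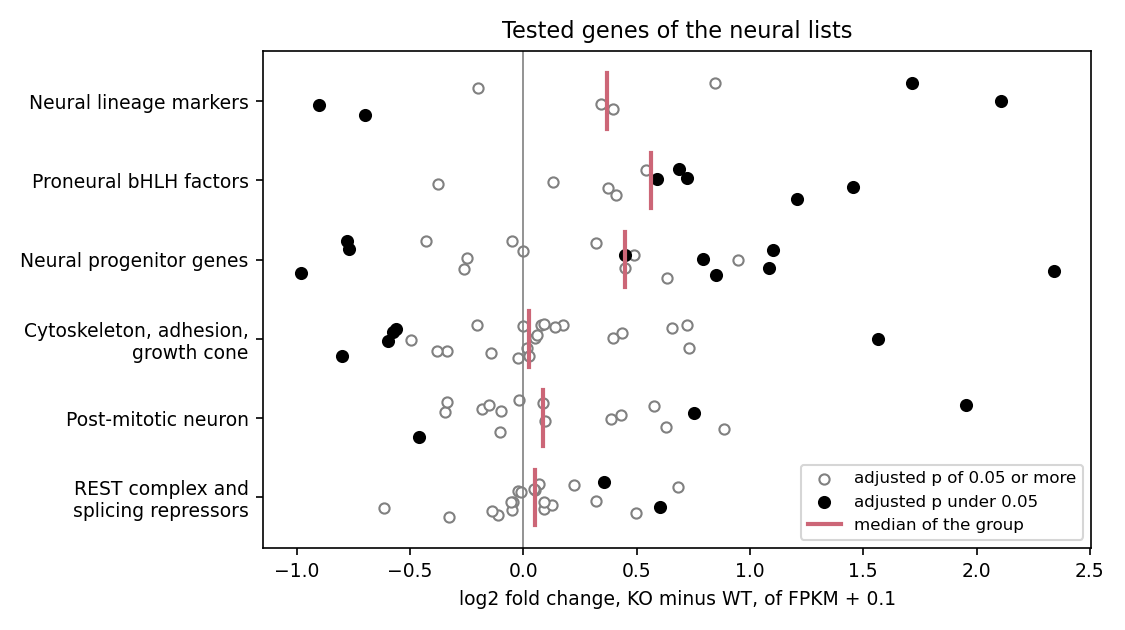
Log2 fold change of FPKM + 0.1, KO minus WT, of each tested gene of the markers and of 5 neural lists (rows), with filled points for an adjusted p under 0.05 in limma and a red bar at each row's median. Genes that passed lie on both sides of 0 for the markers and for the progenitor, cytoskeleton and post-mitotic lists, and on the higher side alone for the bHLH and REST lists.

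Markers of the cell types the cultures could hold were read beside these changes. All 12 ESC markers were above 1 FPKM on average. *Pou5f1*, the pluripotency factor OCT4, was between 1389 and 1620 FPKM in the 4 libraries, and the summed level of the 12 was 7600 and 7422 FPKM in WT and 7265 and 6838 FPKM in KO. Of the 12, *Fgf4* rose with a log2 fold change of 0.30 (limma adjusted p = 0.0493) and *Klf4*, *Tdgf1* and *Utf1* fell with log2 fold changes of -0.46, -0.36 and -0.43 (limma adjusted p = 0.0177, 0.0322 and 0.0491). At an unadjusted p under 0.05 in limma, 1 of the 12 was higher and 6 were lower, against 14.1% and 15.5% of all features. The latter include *Nanog*, *Sox2* and *Zfp42*, with log2 fold changes of -0.18, -0.26 and -0.21. By sign alone, 3 of the 12 were higher and 9 lower. For neural crest, 9 of 10 markers were in the files and 3 were tested, none of which passed in limma or had an unadjusted p under 0.05. Their summed level was 69.3 and 69.8 FPKM in WT and 69.3 and 60.8 FPKM in KO, nearly all of it *Foxd3*, which ESCs also express, while the crest factor *Sox10* did not exceed 0.02 FPKM. For glia, 8 of 10 were in the files and 2 were tested, none of which passed in limma, with 1 higher and 1 lower at an unadjusted p under 0.05. Their summed level was 8.60 and 9.32 FPKM in WT and 7.56 and 8.35 FPKM in KO, and the defining genes *Gfap* and *Mbp* did not exceed 0.27 and 0.21 FPKM. The ESC markers were therefore present and the defining markers of glia and crest near 0 in both genotypes.

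The remaining lists were those of primitive endoderm, of primitive streak and mesoderm, and of fibroblasts. For primitive endoderm, all 10 markers were in the files and 4 were tested, and *Sparc* fell with a log2 fold change of -0.31 (limma adjusted p = 0.0459). At an unadjusted p under 0.05 in limma, 1 of the 4 was higher, *Col4a1*, and 2 were lower. The summed level was 76.3 and 73.3 FPKM in WT and 63.3 and 62.0 FPKM in KO, most of it *Sparc*. Of those not tested, *Sox7*, *Dab2*, *Pdgfra* and *Foxa2* were higher in both KO libraries than in both WT libraries, at no more than 0.709 FPKM. *Gata6* and *Sox17* overlapped between the groups. For primitive streak and mesoderm, 10 were in the files and 2 were tested, and *Eomes* was called lower, from 2.21 and 2.25 FPKM to 0.463 and 0.775 FPKM, with a log2 fold change of -1.73 (SE 0.27, limma adjusted p = 0.0154). The summed level of that list was 4.90 and 4.76 FPKM in WT and 3.93 and 3.59 FPKM in KO. Not all of its genes went this way. Among those not tested, *Mesp1*, *Kdr* and *T* were higher in both KO libraries than in both WT libraries, at no more than 0.465 FPKM. *Foxc2* was lower in both, and the others not tested overlapped. For fibroblasts, 8 of 10 were in the files and 2 were tested. *Fn1* rose with a log2 fold change of 0.50 (limma adjusted p = 0.0206). *Thy1* had a log2 fold change of 0.55 and did not pass (limma adjusted p = 0.120). Both tested genes were higher at an unadjusted p under 0.05 in limma, against 14.1% of all features. The summed level went from 75.4 and 69.8 FPKM in WT to 107 and 97.3 FPKM in KO. The defining genes *Col1a1* and *Col3a1* did not exceed 0.22 and 0.02 FPKM. The part of any of these in the change of the markers was not tested.

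Each marker that passed was also matched to the 3 tested features whose 4 values, taken on the log2 scale relative to the WT mean, differed least from its own by root mean square, among at least 11942 features with a symbol. The genes most like *Neurod1* were *Nsg2* (0.121 on the log2 scale), *Trim12c* (0.131) and *Tll1* (0.142), and those most like *Pax6* were *Rhox6* (0.0668), *Trim68* (0.105) and *Irs3* (0.118). The genes most like *Tubb3* were *Hmox1* (0.00822), *Lad1* (0.0191) and *Porcn* (0.0200), and those most like *Stmn2* were *Ints8* (0.0178), *Eps8* (0.0383) and *Me1* (0.0394). *Hmox1*, the heme oxygenase-1 gene, had almost the level of *Tubb3* as well, at 135.5 and 128 FPKM in WT and 86.0 and 77.3 FPKM in KO. With 4 libraries, such likeness is a description of these values.

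The libraries themselves differed in the share of features without a gene symbol. Features without a gene symbol took 26.8% and 37.3% of the summed FPKM in WT and 19.0% and 18.1% in KO, while the median FPKM was between 2.32 and 2.46 in the 4 libraries, and scaling to the features with a symbol left the 4 markers that passed past the threshold. *Arntl* was at 6.05 and 6.29 FPKM in WT and 5.95 and 5.92 FPKM in KO (limma adjusted p = 0.750), and a value over the whole transcript does not check a small deletion. FPKM do not hold the number of reads, and the libraries therefore have an unknown depth.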

How the data were processed

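The data were 4 RNA-seq libraries of undifferentiated mouse ESCs, 2 of WT and 2 of *Bmal1* KO, grouped by their labels. RNA was isolated with Trizol and depleted of ribosomal RNA. The authors aligned reads to GRCm38 (mm10) with TopHat2 2.1.1 and Bowtie2 2.3.0 and estimated FPKM with Cufflinks 2.2.1, and these deposited FPKM per feature were the starting values. The tools and versions are those of the submitters' processing notes. FPKM carry no read counts, so precision was judged from replicates alone, and a share of FPKM taken by a few features shifts all others.

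Comma-merged symbols were split, and where a gene had several features the one with the highest mean was used. Starts were raised by 1 to count from 1. Values were compared as log2(FPKM + 0.1) for features with a mean of at least 0.5 FPKM in limma 3.58.1 (R 4.3.3) with a variance trend, without a replicate block, and p-values were adjusted by Benjamini-Hochberg over the 12990 features tested. Fold changes on this scale understate those of low genes. Called means an adjusted p under 0.05 and more than 2-fold. The test was checked on simulated data with independent noise and known changes of more than 2-fold. That check does not bear on smaller changes or on differences shared by the libraries of a genotype. Gene models and overlaps came from GENCODE M21, promoters from RefSeq. Python 3.11.15 with pandas 2.3.3 and numpy 2.4.6 served for the joins and summaries, scipy 1.17.1 for the correlations and matplotlib 3.10.9 for the plots.

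The genes named are all markers, every measured member of their families, every called gene and the 2 with the highest mean of each neural list, and for each marker that passed the 3 features of most like pattern. Cell type lists were checked whole. Others were named after their values were seen. The markers and lists were chosen with earlier results of these data known. Alternatives were 10 settings of pseudocount, filter, scaling, block, variance model and features, and leaving out each of the 4 libraries. The RT-qPCR, Western blot, screening and differentiation assays were not analysed here.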

Additional observations from a re-analysis of the deposited data

How the results depend on the processing

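No marker changed direction: of 112 values from 8 markers under 14 alternatives, 106 kept their direction and their side of the threshold. The limma adjusted p of *Neurod1*, *Tubb3* and *Stmn2* stayed under 0.05 in all 14, with log2 fold changes of 1.19 to 2.31, -0.78 to -0.62 and -0.99 to -0.82. *Pax6* (at least 1.01) passed in 13 and *Nes* (0.46 to 0.93) in 4, *Nes* at an adjusted p of 0.0479 with a pseudocount of 1, 0.0454 with scaling to features with a symbol, 0.0433 with the replicate block and 0.0214 without the variance trend. *Map2* (0.09 to 0.70) and *Gap43* (-0.25 to -0.13) passed in none, at adjusted p of 0.103 to 0.897 and 0.0750 to 0.575, and *Ncam1* (0.05 to 0.63) passed in 1, without WT replicate 1.

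Without the minimum on low values, 1 marker in place of 2 was higher and 1 in place of 2 was called higher, and 5 in place of 8 genes of the neural lists passed lower. That setting tests more features and takes in values near 0. With a pseudocount of 1, 4 in place of 7 list genes were called higher, *Nsg2*, *Sox3* and *Sox11* dropping below 2-fold, and over all features 146 and 85 in place of 353 and 185 were called higher and lower. The larger pseudocount shrinks the fold change of low genes. With a pseudocount of 0.01 and with quantile normalization, 1 list gene, *En2*, was called lower in place of 0. When a library was left out, 2 to 3 markers were higher, 2 lower and 2 called higher, and 6 to 8 list genes were called higher, 0 to 1 lower, with 14 to 19 passing higher and 7 to 9 lower. Over all features, leaving out a library gave 316 to 484 calls higher and 251 to 331 lower. An arm left with 1 library was assumed to vary like the other.

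The replicate numbers were not treated as pairs, since there are 2 and no source says that equal numbers were processed together. Deviations of same-numbered libraries correlated across 12990 features with r = 0.07 and rho = 0.39. With the replicate block, 27 in place of 16 list genes passed higher and 15 in place of 8 lower, and 4052 in place of 1618 features passed, against 951 without the minimum. The cause was not tested. Markers below about 1 FPKM in WT are limited by low signal.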

Other observations

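*Emx2*, a homeobox gene of the developing cortex from the progenitor list, had a mean under 0.5 FPKM and was not tested with the others. It was at 0.02 FPKM in both WT libraries and at 0.62 and 0.79 FPKM in KO replicates 1 and 2, and it was the 1 list gene that was called only when the minimum on low values was dropped. It was chosen after its values were seen.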
